A study of Mus musculus with 4 samples.

Results

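Chemokines and inflammatory cytokines were followed in sorted mouse blood stem cells through 8 genes: the CC chemokine genes Ccl3, Ccl4, Ccl5, Ccl6 and Ccl9, the CXC chemokine gene Cxcl2, and the cytokine genes Tnf and Il1b. All probe sets annotated to 1 of these symbols alone were taken, which gave 10 of the 45037 probe sets of the array, for 8 of the 18193 genes named on it. Ccl6 and Ccl9 had 2 probe sets each and the others 1. The question was whether these genes differ between long-term (LT-HSC) and short-term haematopoietic stem cells (ST-HSC), which restore the blood system after transplantation for a long or a short time. RNA of 2 samples of each population was hybridised to Affymetrix mouse expression arrays.

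Both populations were sorted from bone marrow as lineage-negative, cKit+, Sca1+ and CD135- cells, LT-HSC as CD34- and ST-HSC as CD34+. Every mouse was a control on the C57BL/6 strain without the interferon-inducible Mx-Cre transgene, and was injected 7 times with poly(I:C), a double-stranded RNA that itself induces interferon and cytokines. The mice were 7.5 weeks old and 4 weeks past the last injection for all samples but ST-HSC replicate 3, whose mice were 8.5 weeks old and 3 weeks past it. No sample without poly(I:C) was analysed here. The labels do not say how many animals made up a sample, so the p-values measure the spread between these samples, part of which may be technical. The titles set the groups, since the tissue field names both ST-HSC samples LT-HSC while giving CD34+ as their gate.

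Chemokines are small secreted proteins that attract leukocytes through G protein-coupled receptors. Ccl3 and Ccl4 are also called macrophage inflammatory proteins 1-alpha and 1-beta, and Ccl5 is called RANTES. Ccl3, Ccl5, Ccl6 and Ccl9 act on the receptor Ccr1. Cxcl2 attracts neutrophils through Cxcr2. Tumour necrosis factor (Tnf) and interleukin-1 beta (Il1b) are released by activated myeloid cells and switch on NF-kappa-B, which in turn induces many chemokine genes and its own inhibitors. In the marrow, Ccl3 is known as an inhibitor of stem and progenitor cell proliferation, and interleukin-1 pushes stem cells towards myeloid output.

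Median intensities of the arrays ran from 19.1 to 28.3, so the arrays were quantile normalized, and values were compared as log2(intensity + 16), a scale that understates the fold of dim probe sets. Cd34, which separated the gates, stood at 18.3 and 23.5 on the LT-HSC arrays and at 841 and 1142 on the ST-HSC arrays. Of 11 tested stem cell genes, Cd34, Kit and Hoxa9 (3) were higher in ST-HSC and 8 did not pass. Of all tested probe sets, 5.47% were higher in ST-HSC. The median difference (LT-HSC minus ST-HSC) of the 11 genes was -0.90. Without ST-HSC replicate 3 more of the 11 were called higher in ST-HSC, and without either LT-HSC array fewer. The share of all probe sets called higher in ST-HSC rose and fell in the same fits. Markers of mature blood cells stood out on some arrays. The summed intensity of 10 neutrophil markers with a probe set was 53828 on ST-HSC replicate 3 against 560 to 4260 on the other arrays. That of 7 plasma cell markers was 43004 and 43528 on the LT-HSC arrays against 1693 and 2785 on the ST-HSC arrays. In bulk samples, fewer cells of a type and less RNA per cell cannot be told apart.

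Of the 8 genes, Ccl5 was higher in LT-HSC and Ccl9 higher in ST-HSC, by 2.76-fold and 10.2-fold on the log2(intensity + 16) scale. The other genes gave no call, and most of their probe sets were dim. Of the 10 probe sets, 7 passed the filter on low values, which required a mean over the 4 arrays above the 40th percentile (an intensity of about 16.7). The 3 that did not were both probe sets of Ccl6 and that of Cxcl2, and these are given as values without a test. Of the 7 tested, 1 was higher in LT-HSC and 1 in ST-HSC in limma at an adjusted p under 0.05, where 6.71% and 5.47% of all 27022 tested probe sets passed in these directions. Counts of 1 in 7 cannot be read as a departure from that background. Both ST-HSC arrays lay above both LT-HSC arrays for 4 of the 7 (34.2% of all tested probe sets) and both LT-HSC arrays above both ST-HSC arrays for 1 (26.9%). The median difference (LT-HSC minus ST-HSC) was -0.40 over the 7 and -0.08 over all tested probe sets.

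**Figure D1:**
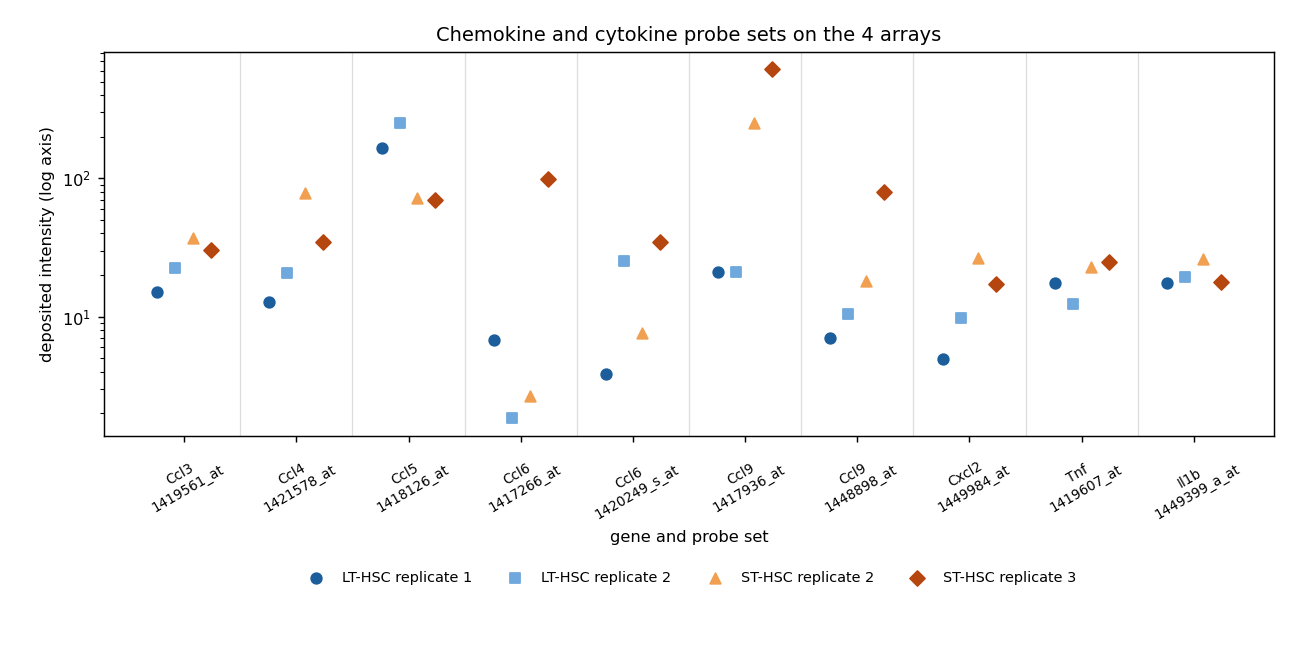
Deposited intensity on a log axis for each of the 10 probe sets, with 1 point per array (circles and squares for LT-HSC replicates 1 and 2, triangles and diamonds for ST-HSC replicates 2 and 3). Ccl5 lies higher in LT-HSC (164 and 252 against 72.5 and 69.1), the first probe set of Ccl9 higher in ST-HSC (249 and 612 against 21.0 and 21.1), and 1 probe set of Ccl6 is high on ST-HSC replicate 3 only (99.1).

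Ccl9, also called MIP-1-gamma, is made by myeloid cells and acts through Ccr1. Its probe set 1417936_at stood at 21.0 and 21.1 on the LT-HSC arrays and at 249 and 612 on the ST-HSC arrays. The groups did not overlap, and ST-HSC replicate 3 was the highest. The log2 means were 5.27 ± 0.24 (SD, n = 2) in LT-HSC and 8.62 ± 0.92 (SD, n = 2) in ST-HSC, a difference of -3.35 (SE 0.47, 95% interval -4.46 to -2.24, limma adjusted p = 0.00811). The ratio of the mean deposited intensities, ST-HSC over LT-HSC, was 20.5. The second probe set, 1448898_at, stood at 6.97 and 10.4 on the LT-HSC arrays and at 18.2 and 79.1 on the ST-HSC arrays. It lay on the same side but did not pass (difference -1.15, SE 0.51, 95% interval -2.37 to 0.07, adjusted p = 0.186). Leaving out LT-HSC replicate 1 (-3.45) or 2 (-3.21) ended the call of the first probe set, in fits where far fewer of all probe sets were called in either direction. Leaving out ST-HSC replicate 2 (-4.04) or 3 (-2.71) did not end it. The second probe set passed without ST-HSC replicate 2 (-1.87, adjusted p = 0.0072).

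Ccl6, a chemokine of macrophages and other myeloid cells and the neighbour of Ccl9 in the genome, was low on most arrays. Probe set 1417266_at stood at 6.82 and 1.85 on the LT-HSC arrays and at 2.66 and 99.1 on the ST-HSC arrays. Probe set 1420249_s_at stood at 3.87 and 25.2 on the LT-HSC arrays and at 7.66 and 34.6 on the ST-HSC arrays. The groups overlapped on both, and ST-HSC replicate 3 was the highest array on both. The difference was -1.10 for the first and -0.21 for the second, with within-group SDs in ST-HSC of 1.90 and 0.80 (n = 2). With ST-HSC replicate 3 as the lone ST-HSC sample, assumed to vary like the LT-HSC pair, the first passed (-2.40, adjusted p = 0.00214).

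**Figure D2:**
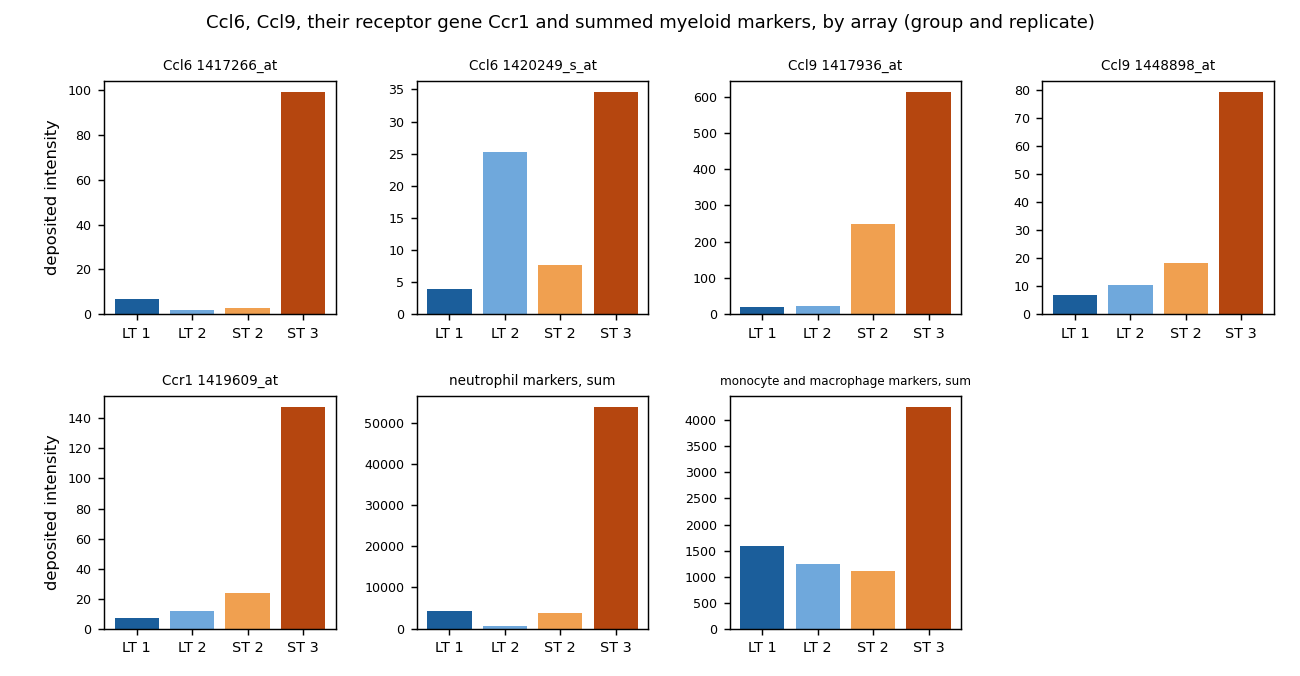
Bars from 0 show the deposited intensity on each array (LT-HSC replicates 1 and 2, ST-HSC replicates 2 and 3) for both probe sets of Ccl6 and of Ccl9, for Ccr1, and for the sums over 10 neutrophil and 16 monocyte and macrophage markers. ST-HSC replicate 3 has the highest bar in all 7 panels, in the monocyte and macrophage panel through Lyz2 (3144 of 4260), and Ccl9 1417936_at is also higher on ST-HSC replicate 2 (249) than on either LT-HSC array.

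The receptor gene Ccr1 stood at 7.07 and 11.8 on the LT-HSC arrays and at 24.1 and 148 on the ST-HSC arrays, with a difference of -1.60 that did not pass (SE 0.64, adjusted p = 0.15) except without ST-HSC replicate 2 (adjusted p = 0.000566). Myeloid markers also differed between these arrays. S100a8, 1 of the neutrophil markers, stood at 813 and 18.6 on the LT-HSC arrays and at 1178 and 11465 on the ST-HSC arrays. The lysozyme gene Lyz2 stood at 192 and 85.9 on the LT-HSC arrays and at 428 and 3144 on the ST-HSC arrays. The neutrophil sum was 4260 and 560 on the LT-HSC arrays and 3845 and 53828 on those of ST-HSC. Summed over 16 monocyte and macrophage markers, intensity came to 1595 and 1245 on the LT-HSC arrays and to 1112 and 4260 on the ST-HSC arrays. Lyz2 made up 3144 of the last value, and without it the other 15 came to 1404 and 1159 against 684 and 1117. Of these markers Itgam, C1qa, C1qc and Ms4a7 were below the filter, 11 did not pass and Cd68 was higher in LT-HSC (1 gene). Of the 10 neutrophil markers 0 passed in limma, with 3 at an unadjusted p under 0.05. Without ST-HSC replicate 2 all of them were called higher in ST-HSC, in a fit where more of all probe sets were called. With no normalization between arrays 0 monocyte and macrophage markers were higher in LT-HSC and 1 in ST-HSC. The part of these markers in the values of Ccl6, Ccl9 and Ccr1 was not tested.

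The 5 CC chemokine genes lie side by side on chromosome 11. In the RefSeq annotation of GRCm38.p6 they follow each other in the order Ccl5, Ccl9, Ccl6, Ccl3 and Ccl4, with 0 other protein-coding genes starting between the first and the last. Along this order the differences, by each gene's brightest probe set, were 1.47, -3.35, -0.21, -0.40 and -0.95, so the adjacent genes Ccl5 and Ccl9 were called in opposite directions. RefSeq promoters of GRCm38.p6 matched 6 of the 8 genes by symbol, and Ccl4 and Ccl5 had no entry. Ccl9 was called, its neighbour Ccl6 gave no call, and Cxcl2 held 2 overlapping matches to the NF-kappa-B motif. The 250 bases before the start of these 3 genes are shown. They lie at chr11:83578637-83578886 (minus strand), chr11:83593088-83593337 (minus strand) and chr5:90903649-90903898 (plus strand). Each is written 5′ to 3′ along the gene, with motif matches in capitals.
Ccl9: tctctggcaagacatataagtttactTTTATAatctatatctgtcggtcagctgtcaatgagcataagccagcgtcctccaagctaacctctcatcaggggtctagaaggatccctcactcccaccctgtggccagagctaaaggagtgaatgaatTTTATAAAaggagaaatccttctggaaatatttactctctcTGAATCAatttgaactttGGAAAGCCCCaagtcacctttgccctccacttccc
Ccl6: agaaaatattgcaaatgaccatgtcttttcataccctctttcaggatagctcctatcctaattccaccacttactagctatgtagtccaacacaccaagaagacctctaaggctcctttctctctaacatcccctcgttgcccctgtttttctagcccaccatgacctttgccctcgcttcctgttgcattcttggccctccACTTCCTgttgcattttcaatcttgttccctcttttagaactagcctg
Cxcl2: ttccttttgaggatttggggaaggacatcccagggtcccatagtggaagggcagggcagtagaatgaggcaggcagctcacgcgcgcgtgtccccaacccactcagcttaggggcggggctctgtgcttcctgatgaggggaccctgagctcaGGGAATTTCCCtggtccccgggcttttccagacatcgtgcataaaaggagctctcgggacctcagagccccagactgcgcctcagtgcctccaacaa

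Motifs were searched on both strands: the NF-kappa-B consensus, AP-1 (TGANTCA), C/EBP (TTGCNNAA), PU.1 (AGGAAGT) and the TATA box (TATAAA). Of all 32851 promoters of the table, cut to the same length, 7.25% held the NF-kappa-B motif, 6.75% AP-1, 9.56% C/EBP, 7.69% PU.1 and 12.4% TATA. The Ccl9 window held 1 NF-kappa-B match that begins 35 bases before the start and 3 TATA matches, of which 2 overlap on opposite strands. It also held 1 match to the AP-1 letters, TGAATCA, that begins 53 bases before the start. The N of the AP-1 letters allowed any base, here A. The Ccl6 window held 1 PU.1 match, 48 bases before the start. The Cxcl2 window held 2 NF-kappa-B matches that overlap on opposite strands, beginning 97 and 96 bases before the start. C/EBP had 0 matches in the 6 windows. Of the windows not shown, Tnf held 1 PU.1 and 1 TATA match, Il1b 1 TATA match and Ccl3 0 matches. A match describes letters only, and no binding was measured.

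Ccl5 encodes RANTES, a chemokine of T cells, natural killer cells and platelets that attracts T cells and monocytes. Its probe set 1418126_at stood at 164 and 252 on the LT-HSC arrays and at 72.5 and 69.1 on the ST-HSC arrays. Both LT-HSC arrays lay above both ST-HSC arrays. The log2 means were 7.85 ± 0.31 (SD, n = 2) and 6.38 ± 0.10 (SD, n = 2), a difference of 1.47 (SE 0.32, 95% interval 0.71 to 2.22, limma adjusted p = 0.0323). Leaving out LT-HSC replicate 1 (1.64) or 2 (1.27) ended the call, in fits where far fewer of all probe sets were called in either direction. Leaving out ST-HSC replicate 2 or 3 did not end it (1.42 and 1.53).

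Some lymphocyte markers differed in the same direction as Ccl5. Among 8 tested T and natural killer cell markers, Cd3g, Cd2, Gzma and Klrd1 (4) were higher in LT-HSC, Nkg7 (1) was higher in ST-HSC and 3 did not pass. The T cell receptor component Cd3g stood at 59.3 and 66.2 on the LT-HSC arrays and at 6.75 and 7.07 on the ST-HSC arrays. Cd3e, Cd3d, Prf1, Klrk1 and Ncr1 were below the filter. With LT-HSC replicate 1 or 2 left out, fewer genes of the list were called higher in LT-HSC, as were fewer of all probe sets. Summed over the 13 markers with a probe set, intensity came to 575 and 1118 on the LT-HSC arrays and to 1508 and 1634 on the ST-HSC arrays, a sum of which Nkg7 made up 1277 and 1404 on the ST-HSC arrays. Of 6 tested B-cell markers 4 and of 7 plasma cell markers 7 were higher in LT-HSC, as were 6.71% of all tested probe sets. The part of these markers in the Ccl5 difference was not tested.

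**Figure D3:**
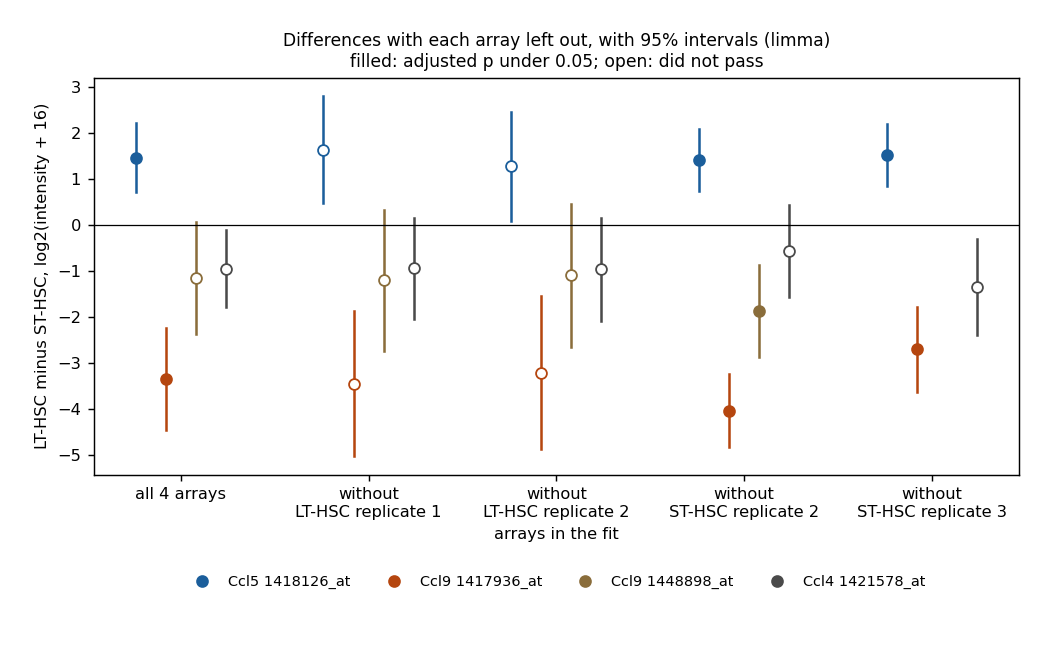
LT-HSC minus ST-HSC on the log2(intensity + 16) scale with 95% intervals from limma, for all 4 arrays and with each array left out, for Ccl5, both probe sets of Ccl9, and Ccl4. Ccl5 stays above 0 and Ccl9 1417936_at below 0 in all 5 fits, and both lose their call (open points) without LT-HSC replicate 1 or 2. The second Ccl9 probe set has no value without ST-HSC replicate 3, where it fell below the filter.

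Ccl3 and Ccl4 lay higher in ST-HSC on all arrays but did not pass. Ccl4, probe set 1421578_at, stood at 12.8 and 20.5 on the LT-HSC arrays and at 77.8 and 34.7 on the ST-HSC arrays. The groups did not overlap, and ST-HSC replicate 2 was the highest, unlike for Ccl6 and Ccl9. The difference was -0.95 (SE 0.35, 95% interval -1.79 to -0.11, limma adjusted p = 0.125), with an unadjusted p of 0.0315. It was -1.35 (adjusted p = 0.0634) without ST-HSC replicate 3 and -0.57 (adjusted p = 0.392) without ST-HSC replicate 2. Ccl3, probe set 1419561_at, stood at 15.0 and 22.5 on the LT-HSC arrays and at 37.0 and 30.1 on the ST-HSC arrays, again without overlap. Its difference of -0.40 (SE 0.30, 95% interval -1.11 to 0.30, adjusted p = 0.4) leaves room for a change of either sign.

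Cxcl2, probe set 1449984_at, stood at 4.98 and 9.77 on the LT-HSC arrays and at 26.5 and 17.3 on the ST-HSC arrays. The groups did not overlap, with log2 means of 4.60 ± 0.01 (SD, n = 2) and 5.17 ± 0.25 (SD, n = 2), and the difference of -0.57 has no test because the mean lay below the filter. With the filter removed it did not pass (adjusted p = 0.301). The gene of its receptor, Cxcr2, was also below the filter, at 13.9 and 1.41 on the LT-HSC arrays and at 5.88 and 16.4 on the ST-HSC arrays.

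Tnf and Il1b, the cytokines of the group, overlapped between the groups. Tnf, probe set 1419607_at, stood at 17.4 and 12.3 on the LT-HSC arrays and at 23.0 and 24.8 on the ST-HSC arrays, with ST-HSC slightly above on the deposited values and LT-HSC replicate 1 between the ST-HSC arrays after normalization. Its difference was -0.27 (SE 0.33, 95% interval -1.06 to 0.52, limma adjusted p = 0.622). Il1b, probe set 1449399_a_at, stood at 17.4 and 19.4 on the LT-HSC arrays and at 25.9 and 17.9 on the ST-HSC arrays. Its difference was -0.02 (SE 0.31, 95% interval -0.76 to 0.73, adjusted p = 0.981). Neither probe set was above its array's median on any array, and detection calls were not used here.

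**Figure D4:**
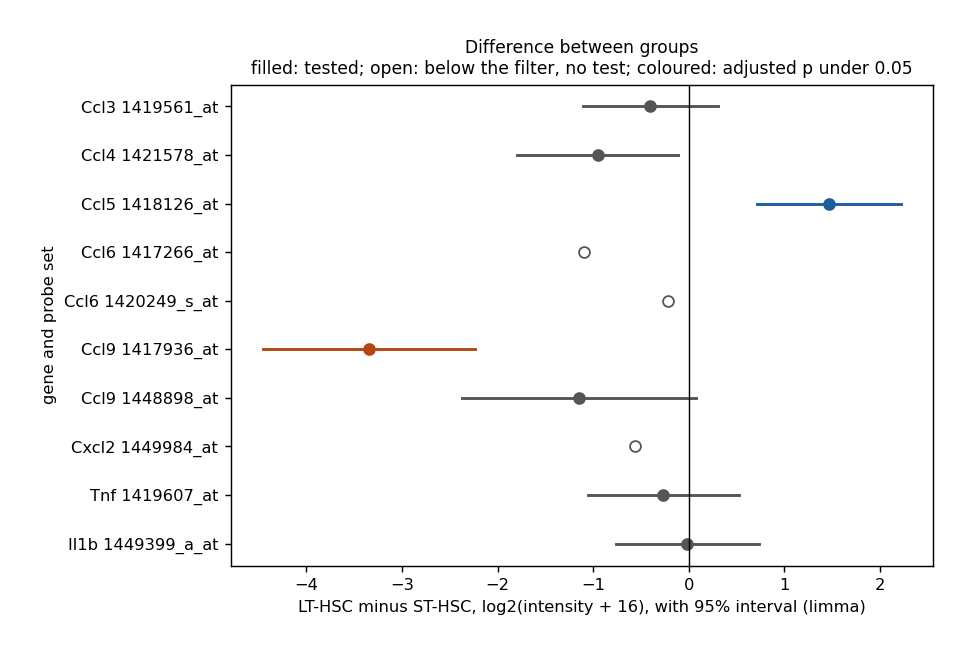
LT-HSC minus ST-HSC on the log2(intensity + 16) scale for the 10 probe sets, with 95% intervals from limma for the 7 tested (filled) and points alone for the 3 below the filter (open). Coloured points passed at an adjusted p under 0.05: Ccl5 at 1.47 and Ccl9 1417936_at at -3.35. The intervals of Ccl3, Tnf, Il1b and the second Ccl9 probe set cross 0, and that of Ccl4 does not (-1.79 to -0.11), although its adjusted p is 0.125.

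The other genes of these pathways were counted by their brightest tested probe set, in lists chosen with earlier results of these data known. Of all tested probe sets, 6.71% were higher in LT-HSC and 5.47% in ST-HSC, a share of probe sets and not of genes. With probe sets averaged per gene, 9.49% and 10.1% of the tested genes passed in these directions. Of 13 other CC chemokine genes 12 had a probe set and 1 (Ccl28) passed the filter, without a call. Of 15 other CXC, C and CX3C chemokine genes 9 were tested and 0 passed in limma, with 3 at an unadjusted p under 0.05. These were the platelet chemokine genes Pf4 (difference -1.20, adjusted p = 0.108) and Ppbp (-1.24, adjusted p = 0.0605) and, in the other direction, Cxcl16 (1.21, adjusted p = 0.155). The median difference of the 9 was 0.09, and -0.01 with no normalization between arrays. With the arrays centred on their medians 1 of these genes was higher in ST-HSC. Without ST-HSC replicate 2 or 3 a gene of the list was also called higher in ST-HSC, in fits where more of all probe sets were.

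Of 14 tested chemokine receptor genes 8 were higher in LT-HSC, 0 higher in ST-HSC and 6 did not pass. Among the 6, Ccr2 (1 of 4 tested probe sets) had a less bright probe set that was higher in LT-HSC. Of all tested probe sets, 6.71% were higher in LT-HSC and 5.47% in ST-HSC. The list's median was 1.23 against -0.08 over all tested probe sets. Cxcr6, the receptor of Cxcl16, stood at 481 and 414 on the LT-HSC arrays and at 0.483 and 0.311 on the ST-HSC arrays (difference 4.82, SE 0.30, adjusted p = 0.00042). Ccr9, Cxcr3 and Ccr10, receptors of lymphocytes and plasma cells, were higher in LT-HSC by 2.73 (on 1 of 2 tested probe sets), 2.41 and 1.84. Ccr6, Cxcr5, Ackr4 and Ccrl2 were the others called. With no normalization between arrays 6 receptor genes were higher in LT-HSC, and 8 with the arrays centred on their medians or upper quartiles. Fewer genes of the list passed without LT-HSC replicate 1 or 2, as did fewer of all probe sets. Without ST-HSC replicate 2 some receptor genes were also called higher in ST-HSC, in a fit where more of all probe sets were. Among receptors that the 8 genes use, Ccr1 is given above, and Ccr3 and Cxcr2 were below the filter. The plasma cell markers, all higher in LT-HSC, moved with these receptors, and their part in the result was not tested.

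Of 13 tested genes of other cytokines 4 were higher in LT-HSC, 2 higher in ST-HSC and 7 did not pass, with a median of -0.54. Of all tested probe sets, 6.71% were higher in LT-HSC and 5.47% in ST-HSC. Csf1, the macrophage growth factor, was higher in LT-HSC by 5.15 (SE 0.28, adjusted p = 0.000286), at 3016 and 3464 against 63.7 and 77.3, on 1 of its 4 tested probe sets. Il10 and Il4, interleukins of lymphocytes, were higher in LT-HSC by 2.16 and 1.91, and Mif, macrophage migration inhibitory factor, was higher in ST-HSC (difference -1.33). Il1a, Il6, Lta, Ifng, Csf2 and Csf3 were among the 12 genes below the filter. Fewer genes of the list passed without LT-HSC replicate 1 or 2, as did fewer of all probe sets.

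Around Tnf and Il1b, 17 genes of their receptors, inhibitors and processing were tested. Of these, 2 were higher in LT-HSC, 1 higher in ST-HSC and 14 did not pass. Among the 14, Tnfrsf1b (1 of 2 tested probe sets) and Adam17 (1 of 3) had a less bright probe set that was higher in LT-HSC. Of all tested probe sets, 6.71% were higher in LT-HSC and 5.47% in ST-HSC. Il1rn, which encodes the interleukin-1 receptor antagonist, stood at 739 and 897 on the LT-HSC arrays and at 16.1 and 18.1 on the ST-HSC arrays (difference 4.65, SE 0.30, adjusted p = 0.000486). Il1r1, the signalling receptor of interleukin-1, stood at 11.0 and 9.62 on the LT-HSC arrays and at 89.9 and 87.1 on the ST-HSC arrays (difference -1.85, SE 0.31, adjusted p = 0.0155). The kinase gene Irak2 was higher in LT-HSC by 2.43. The list's median was -0.08, and 0.04 and 0.07 with the arrays centred on their medians and upper quartiles. The Il1rn call held without each array in turn, and leaving out LT-HSC replicate 1 or 2 ended those of Il1r1 and Irak2. Without ST-HSC replicate 2 or 3, more genes of the list were called in both directions, as were more of all probe sets. Under the 3 other scalings 2 genes of the list were higher in ST-HSC.

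Of 15 tested NF-kappa-B genes 4 were higher in LT-HSC, 0 higher in ST-HSC and 11 did not pass, with a median of 0.62. These were the feedback inhibitors Tnfaip3 (difference 2.45, SE 0.26, adjusted p = 0.00334) and Nfkbia (1.83, adjusted p = 0.0232) and the subunits Nfkb2 (1.99) and Relb (1.22). All 5 tested probe sets of Nfkbia passed. Among the 11, Nfkbiz (1 of 3 tested probe sets) had a less bright probe set that was higher in LT-HSC. Of all tested probe sets, 6.71% were higher in LT-HSC and 5.47% in ST-HSC. Of 9 genes listed for the decay or stabilising of AU-rich messages such as those of Tnf and Cxcl2, 8 did not pass, with a median of -0.26. Zfp36l1 was higher in LT-HSC by 2.67 (SE 0.27, adjusted p = 0.00244), on both of its 2 tested probe sets. Among the 8, Hnrnpd (1 of 2 tested probe sets) and Tia1 (1 of 5) had a less bright probe set that was higher in ST-HSC. Zfp36, tristetraprolin, which destabilises the Tnf message, lay at 2.42 (SE 0.69, adjusted p = 0.0655) and stood at 2434 and 2184 on the LT-HSC arrays and at 835 and 155 on the ST-HSC arrays. Neither list kept a call in limma without LT-HSC replicate 1 or 2, in fits where far fewer of all probe sets passed. Without ST-HSC replicate 2 or 3, more genes of both lists were called in both directions, and so were more of all probe sets. With the arrays centred on their medians or upper quartiles, 6 NF-kappa-B genes were higher in LT-HSC, and with no normalization between arrays 3. Under the 3 other scalings 2 genes of the AU-rich list were higher in LT-HSC.

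**Figure D5:**
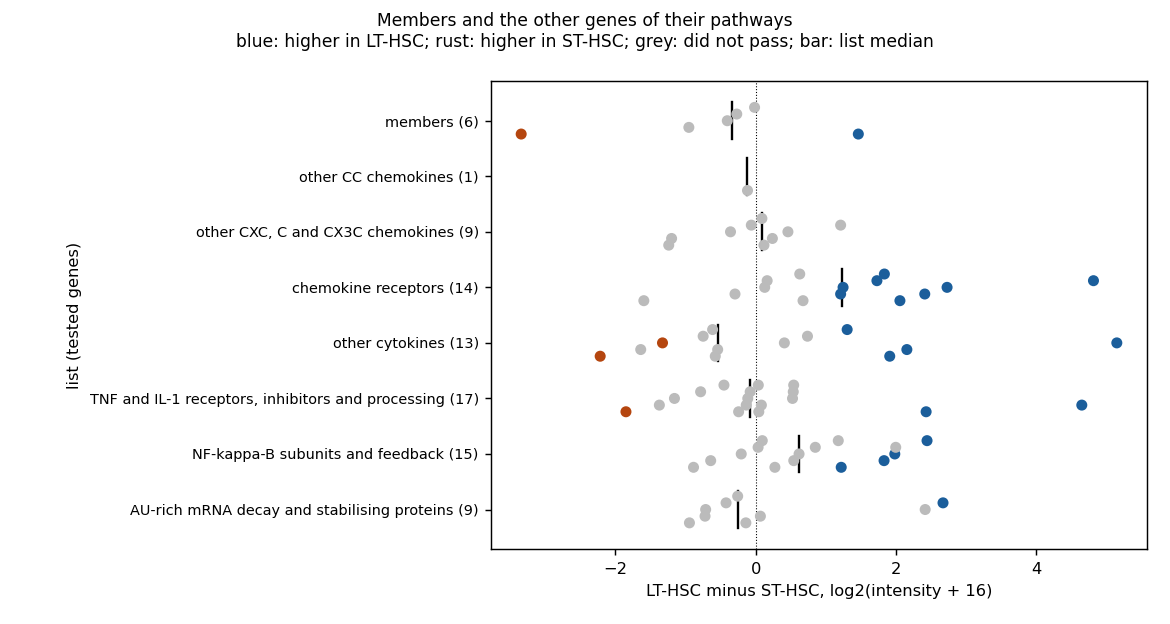
LT-HSC minus ST-HSC on the log2(intensity + 16) scale for each tested gene (1 point, by its brightest tested probe set) of the 8 genes described here, labelled members, and of 7 lists of related genes, with the number tested in brackets and the list median as a bar. Blue points were higher in LT-HSC and rust points higher in ST-HSC at an adjusted p under 0.05 in limma. Called receptors and NF-kappa-B genes lie to the right of 0, and Ccl9 is the point farthest to the left (-3.35).

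The genes with the most similar pattern were found by the Euclidean distance between the 4 log2 values, each gene centred on its own mean, among 12832 genes with a tested probe set. With 4 arrays this describes the pattern and is no test. Nearest to Ccl9 were Tm6sf1 (distance 0.39), Serpinb1a (0.467) and Bex6 (0.659). Tm6sf1 stood at 20.3 and 30.9 on the LT-HSC arrays and at 300 and 559 on the ST-HSC arrays. Nearest to Ccl5 were Trim31 (0.0982), Sfxn5 (0.106) and Stx8 (0.132), each of which was also called higher in LT-HSC. Nearest to Ccl4 were Vamp5, Tspyl3 and Elovl6, from 0.0792 to 0.083. Nearest to Ccl3 were Cct4, Slc35a3 and Iba57, to Tnf Rabep1, Fam229b and Tmem87b, and to Il1b Nfyc, Lad1 and Dcun1d2, with distances from 0.0208 to 0.0605. These 9 genes did not pass the test.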

How the data were processed

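The deposited table held 1 intensity value per probe set and array on a linear scale. Per the labels' protocols, RNA came from a Trizol extraction of the sorted cells and went through 2 amplification rounds. How the authors summarised or scaled the probe values is not given in the sources used here. Precision is limited by the number of arrays.

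Part of the genotype, shared by all samples, is not reported here. The 64 control probe sets were left out. Values were quantile normalized, taken as log2(value + 16) and filtered at the 40th percentile of the mean over the 4 arrays. LT-HSC and ST-HSC were compared in limma 3.58.1 (R 4.3.3; lmFit, eBayes with an intensity trend, 2 residual and 4.83 prior degrees of freedom), with Benjamini-Hochberg adjustment over 27022 probe sets. With 2 against 2 samples an exact permutation test (two-sided) cannot go below 0.333. The code was tested on simulated data. Probe sets were named through the supplied platform annotation (34945 with 1 symbol, 932 with several, 9160 unnamed). The NF-kappa-B motif was widened to its consensus after a narrower form had been searched. The genes and lists were chosen with earlier results of these data known. Named were all probe sets of the 8 genes, up to 4 called genes of smallest p per pathway list, and the 3 most similar genes. The plan to name the markers of lowest and highest level in each list was not followed in full. Outside the rule that was followed, chosen after their values were seen, are Ccr1, Ccr3, Cxcr2, Zfp36, Pf4, Ppbp, Cxcl16, S100a8, Lyz2, Cd3g, Nkg7, Cd34 and further genes given only by their call.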

Additional observations from a re-analysis of the deposited data

How the results depend on the processing

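The counts of called probe sets (1 in each direction) were the same under 11 other settings of normalization, pseudocount, filter, spread model, array weights and averaging of probe sets. With each array left out, 0 to 1 were higher in LT-HSC and 0 to 3 higher in ST-HSC. They were 0 in limma without either LT-HSC array, with 2 at an unadjusted p under 0.05 each time, where 0.0481% and 0.0925% of all probe sets were higher in ST-HSC, and 3 without ST-HSC replicate 2 (both Ccl9 probe sets and Ccl6 1417266_at), where 16.7% were. Ccl5 ranged from 1.08 to 1.65 over 15 settings and passed in 13. Ccl9 1417936_at ranged from -4.04 to -2.36 over 14 and passed in 12, and the mean of both Ccl9 probe sets was at -2.25 (adjusted p = 0.0211). Signs changed only for probe sets that were not called: Ccl6 1420249_s_at without LT-HSC replicate 1 (0.16), Tnf without LT-HSC replicate 2 (0.0088), and Il1b without LT-HSC replicate 2 (0.11), without ST-HSC replicate 2 (0.13) and with arrays centred on the upper quartile (0.0049). With arrays left out, Tnf ranged from -0.55 to 0.0088 and Il1b from -0.17 to 0.13, and Ccl6 1420249_s_at, which passed the filter in 2 of these 4 fits, was at 0.16 and at -0.76 (without ST-HSC replicate 2). The causes were not tested. No paired analysis was possible because the groups share only replicate number 2. With an array left out, the lone sample of its group is assumed to vary like the other group, and the filter is applied again, so that other probe sets may be tested.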
